A study of Mus musculus with 2 samples.

Results

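Ion channels and connexins that carry the electrical impulse through the heart were followed in whole mouse hearts with and without Sirt1, a deacetylase, in their cardiomyocytes. The 9 genes Kcnj2, Kcnj3, Kcnd2, Kcnip2, Kcnq1, Kcnh2, Hcn4, Gja1 and Gja5 were chosen by name, through the gene symbol of the array's probes or an older synonym, out of 16390 named genes on the array. Each of them had 1 probe. The study hybridised RNA to 2 oligonucleotide arrays of the two-colour type, 1 heart per dye, which gave 4 hearts and 1 heart per condition. On 1 array a cardiomyocyte-specific Sirt1 knockout heart after caloric restriction (CR) was set against a knockout heart after ad libitum feeding (AL), and on the other array a control CR heart was set against a control AL heart. All mice were male, on the C57BL/6J background and 6 months old, and had been fed for 3 months, with the restriction set at 40%. Which allele and promoter gave the deletion is not stated in the labels. The knockout hearts keep Sirt1 in all cells other than cardiomyocytes.

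In both genotypes CR hearts carried Cy3 and AL hearts Cy5, so diet and dye cannot be told apart, nor can genotype and array. Every value describes these hearts, with no replicate, SD or p-value. Values are log2 signals after background correction and normalization, and an added offset of 50 scanner units makes differences of dim genes smaller than they would be without it. A spot was called detected where it exceeded the blank spots of its array and dye by 2 SD, and a gene was compared between hearts only where both spots were detected. Between 74% and 80.7% of probes were detected per heart, and 11701 genes in all 4 hearts. Whole hearts were used, so fewer cells of a type and less RNA per cell cannot be told apart. Log2 signals of Sirt1 were 7.51 in the knockout CR heart and 7.07 in the knockout AL heart, against 7.53 in the control CR heart and 7.11 in the control AL heart. The position of its probe relative to the deleted part is not known here, so this does not check the genotype.

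As background, a cardiac action potential ends when potassium leaves the cell through a sequence of channels: a transient outward current early, delayed rectifiers later, and inward rectifiers that hold the resting potential. Pacemaker cells of the sinoatrial node add a current through channels opened by hyperpolarization, and gap junctions made of connexins pass the impulse from cell to cell. In the mouse ventricle the transient outward current is the main early repolarizing current, while the slow and rapid delayed rectifiers that dominate in humans contribute less in the adult.

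Signals of 6 of the 9 genes (Kcnj3, Kcnd2, Kcnip2, Kcnq1, Kcnh2 and Gja1) were above the blank spots in all 4 hearts. Kcnj2 was detected in 3 hearts, Gja5 in 2 and Hcn4 in 1. Among the 6 genes detected throughout, Gja1, Kcnq1, Kcnh2 and Kcnd2 were lower in knockout than in control hearts under both diets. Kcnd2 was not so with the local background subtracted. Kcnip2 was higher in the CR heart on both arrays, but on the control array this was lost (-0.07) with the local background subtracted. Gja1 was higher in the CR heart of the control array, at 0.47, against -0.09 on the knockout array.

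**Figure D1:**
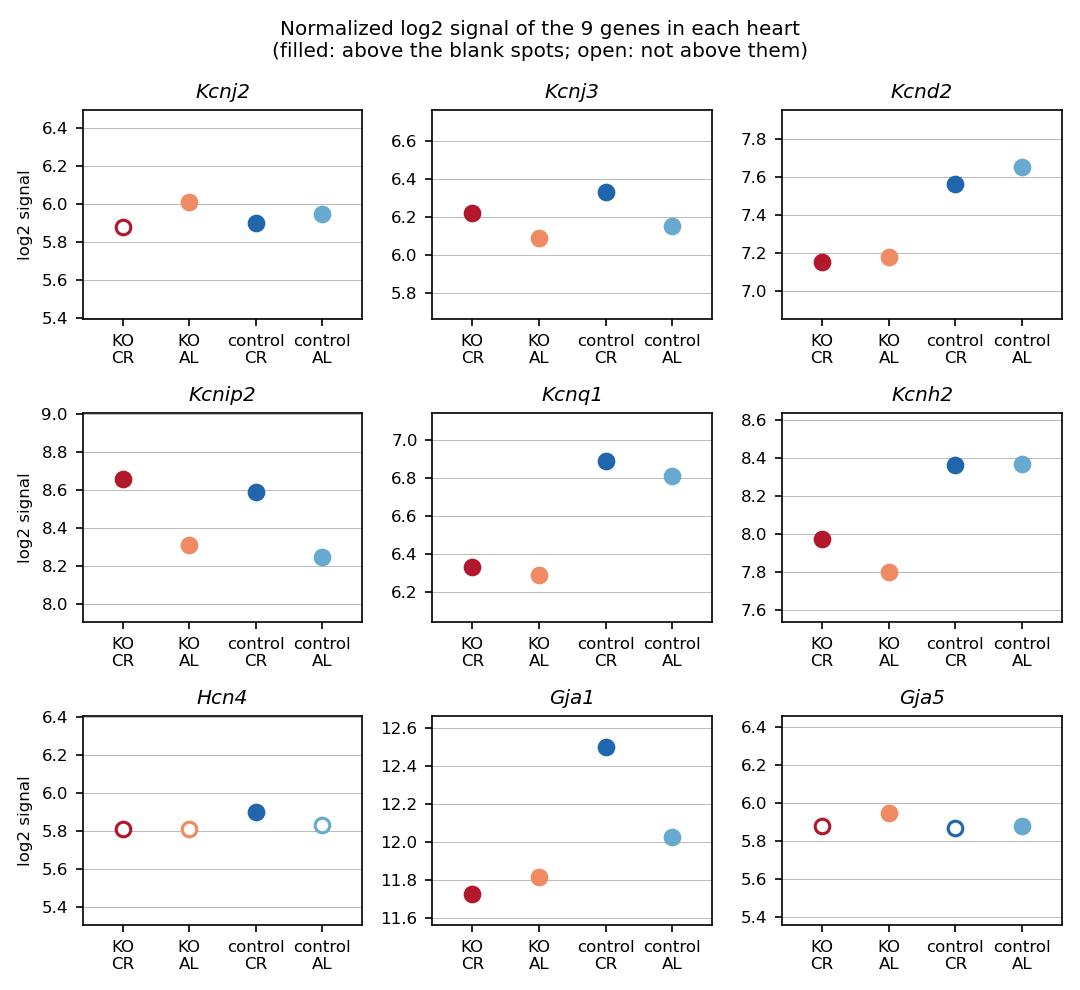
Normalized log2 signal (vertical axis, log2 of scanner units) of the 9 genes in each heart, 1 point per heart; KO is the cardiomyocyte-specific Sirt1 knockout, CR caloric restriction and AL ad libitum feeding. Open points were not above the blank spots. Kcnd2, Kcnq1, Kcnh2 and Gja1 sit lower in both knockout hearts than in both control hearts, and Kcnip2 sits higher in both CR hearts than in both AL hearts.

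Gja1 encodes the connexin that forms most gap junctions between working ventricular myocytes, and it is also made by fibroblasts and vascular cells. Its spot exceeded the blank mean by 3274 scanner units in the knockout CR heart and by 3060 in the knockout AL heart, against 6889 in the control CR heart and 4368 in the control AL heart. The normalized log2 signals were 11.73 (knockout CR), 11.82 (knockout AL), 12.50 (control CR) and 12.03 (control AL). Both knockout hearts were thus below both control hearts, and the control CR heart stood highest. The knockout heart was lower than the control heart, at -0.77 (0.586-fold) under CR, a difference below which only 0.284% of compared genes lay. Under AL it was at -0.21 (0.865-fold), with 12.4% of genes below. CR over AL was -0.09 in knockout hearts and 0.47 in control hearts, the second value higher than in 98.1% of genes. The knockout response minus the control response was -0.56, with 0.632% of genes below it, and this difference could not be tested with 1 heart per condition. In the log2 ratios of CR over AL that the authors deposited, Gja1 stood at -0.05 in knockout hearts and 0.30 in control hearts. The difference of the responses was then -0.35, the value nearest 0 among 8 alternatives.

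Kcnq1 encodes the pore of the slow delayed rectifier, which takes its slow gating from the accessory subunit Kcne1. Its spot exceeded the blank mean by 24.9 units in the knockout CR heart and 20.9 in the knockout AL heart, against 72.8 in the control CR heart and 52.1 in the control AL heart. As log2 signals these were 6.33, 6.29, 6.89 and 6.81 in the same order. All 4 spots were dim, and the knockout pair lay below the control pair. The ring around the spot was at 102% (CR) and 72.2% (AL) of the spot's brightness in knockout hearts, against 66.8% (CR) and 61.5% (AL) in control hearts. The knockout CR spot thus did not exceed its own surroundings. The knockout over control difference was -0.56 under CR and -0.52 under AL, while CR over AL was 0.04 in knockout hearts and 0.08 in control hearts. Kcne1, which was chosen as a partner and is not 1 of the 9, had log2 signals of 6.54 (knockout CR) and 6.43 (knockout AL), against 7.03 (control CR) and 7.16 (control AL). Its differences between knockout and control hearts were -0.50 under CR and -0.73 under AL, and -0.23 and -0.31 with the local background subtracted. Kcnq1 and this partner were thus both lower in the knockout hearts. Akap9, a scaffold that binds the same channel, went the other way, at 0.49 under CR and 0.68 under AL.

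Kcnh2 encodes the pore of the rapid delayed rectifier. Log2 signals were 7.97 in the knockout CR heart and 7.80 in the knockout AL heart, against 8.36 in the control CR heart and 8.37 in the control AL heart. Knockout over control was -0.39 under CR and -0.57 under AL. CR over AL was 0.17 in knockout hearts and -0.02 in control hearts, so the knockout response minus the control response was 0.18, higher than in 91.5% of genes.

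Kcnd2 encodes a pore subunit of the fast transient outward current, and Kcnip2 its calcium-binding accessory subunit, without which that current is lost in mouse ventricle. Kcnd2 had log2 signals of 7.15 (knockout CR) and 7.18 (knockout AL), against 7.56 (control CR) and 7.65 (control AL). Knockout over control was -0.40 under CR and -0.47 under AL, and the diet differences were small at -0.03 in knockout hearts and -0.09 in control hearts. Kcnip2 had the opposite layout, with log2 signals of 8.66 (knockout CR), 8.31 (knockout AL), 8.59 (control CR) and 8.25 (control AL). The CR heart was higher by 0.35 on each array, more than in 96.6% of genes in knockout hearts and 95.8% in control hearts, and knockout over control was 0.07 under each diet. The pore subunit and its partner thus did not share a pattern over these 4 hearts. The genotype values of Kcnip2 rest on how the surroundings of its spot are treated: the ring around the spot was at 54% (CR) and 45.7% (AL) of the spot's brightness on the knockout array, against 99.5% (CR) and 95.3% (AL) on the control array, and with that local background subtracted the knockout over control values became 1.88 under CR and 1.61 under AL. In that setting CR over AL was 0.19 in knockout hearts and -0.07 in control hearts, so the diet difference on the control array was lost too.

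Inward rectifiers were dim. Kcnj3 encodes a subunit of the acetylcholine-activated channel of atrial and nodal cells, through which the vagus slows the heart. Its log2 signals were 6.22 (knockout CR), 6.09 (knockout AL), 6.33 (control CR) and 6.15 (control AL). CR over AL was 0.13 in knockout hearts and 0.18 in control hearts, and knockout over control was -0.11 under CR and -0.05 under AL. In the authors' deposited table, which subtracts the blank mean and adds no offset, Kcnj3 stood at 0.62 in knockout hearts and 0.70 in control hearts for CR over AL. Kcnj2 encodes the main channel of the resting inward rectifier of ventricular cells. Its spot exceeded the blank mean by 3.87 units in the knockout CR heart, which was not above the detection limit, and by 7.81 in the knockout AL heart, against 5.34 in the control CR heart and 5.15 in the control AL heart. A bound from the lowest detected signal placed its knockout CR heart 1.07-fold below its knockout AL heart. Spots this near the blanks do not establish such a difference. CR over AL in control hearts was -0.05, but -0.30 in the authors' deposited table. Knockout over control under AL was 0.06, but 0.55 with the blank mean subtracted. The control CR spot exceeded the blank mean by only 2.26 blank SDs.

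Hcn4, the main pacemaker channel of the sinoatrial node, was detected only in the control CR heart, by 2.08 blank SDs. It exceeded the blank mean by 0.36 units in the knockout CR heart and 0.684 in the knockout AL heart, against 4.92 in the control CR heart and 0.776 in the control AL heart. Among the blank spots themselves, 6.1% exceeded the same limit in the control CR heart, so this spot cannot be set apart from a blank. Gja5, the connexin of atria, the ventricular conduction system and arterial endothelium, was detected in both AL hearts and in neither CR heart. Its log2 signals in the AL hearts were 5.95 (knockout) and 5.88 (control), a difference of 0.07. These spots exceeded the blank mean by 5.38 (knockout) and 2.55 (control) units, and with the blank mean subtracted and no offset the difference was 1.02, past 1.5-fold. The probes for both genes carried too little signal over the blank spots for a comparison of conduction tissue between the hearts.

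Counted over all 9 genes, few were past 1.5-fold, the size used to count genes since no test was possible. Between knockout and control hearts under CR, 1 of 6 compared genes was lower by that much (Gja1) and 0 were higher. Of all 11960 genes compared there, 1.09% were lower and 1.45% higher by that much. The median over the 6 genes was -0.40, against 0.00 over all genes. Of the 6, 5 lay below 0, against 49% of all genes. Under AL, 0 of 8 were past 1.5-fold in either direction, against 1.79% of 12786 genes lower and 2.59% higher. The median was -0.13 against 0.01, and 5 of the 8 lay below 0, against 47.4% of all genes. Over the same 6 genes as under CR, without Kcnj2 and Gja5, the median under AL was -0.34. For CR over AL, 0 of 6 genes in knockout hearts were past 1.5-fold, against 0.782% of all genes higher and 0.758% lower, and 0 of 7 in control hearts, against 0.829% higher and 0.34% lower. For the knockout response minus the control response it was 0 of 6, against 0.393% higher and 0.521% lower of 11701 genes. The genotype comparisons share arrays with the diet comparisons, and the difference of the responses is built from both, so these counts are not separate evidence. The 5851 genes at or above the median signal held 287 of the 304 genes past 1.5-fold under CR and 542 of the 560 under AL. By diet they held 176 of 187 in knockout hearts and 141 of 148 in control hearts. Shares, percentiles and ranges over all genes thus include many dim genes that seldom passed 1.5-fold. Percentiles among genes of like brightness were not computed.

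**Figure D2:**
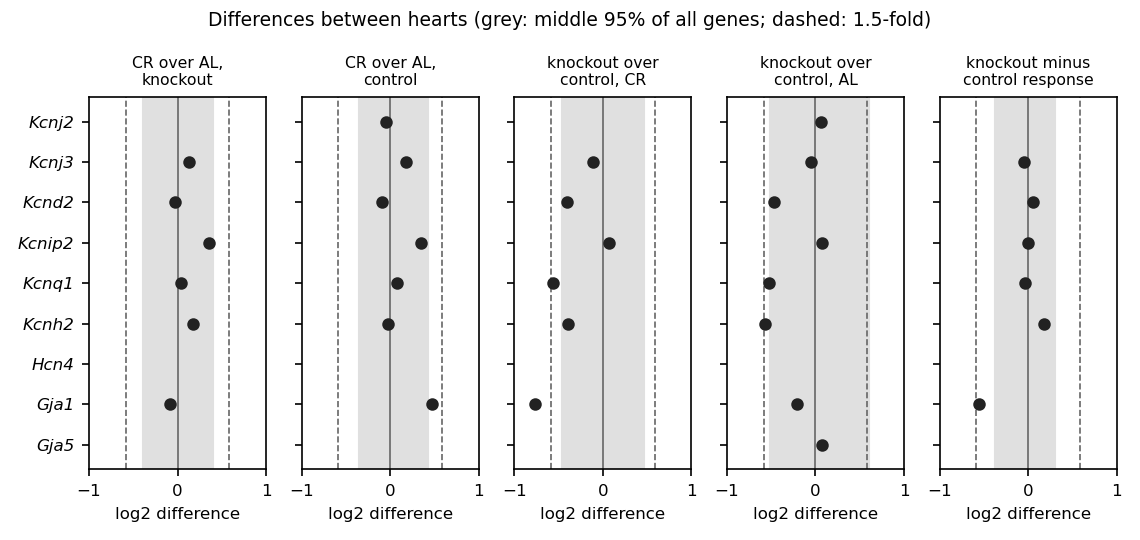
Log2 differences between hearts (horizontal axis) of the 9 genes in the 5 comparisons, 1 point per gene compared; grey marks the middle 95% of all genes and dashed lines 1.5-fold. Gja1 lies outside the grey band at -0.77 for knockout over control under CR, at 0.47 for CR over AL in control hearts and at -0.56 for the difference of the responses.

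Against the middle 95% of all genes, knockout over control values under CR ran between -0.46 and 0.47, and Gja1 (-0.77) and Kcnq1 (-0.56) lay below that range. Under AL the range was -0.51 to 0.60, and Kcnh2 (-0.57) and Kcnq1 (-0.52) lay below it. For CR over AL in knockout hearts it was -0.39 to 0.40, and all 6 genes compared lay inside. In control hearts it was -0.35 to 0.43, with Gja1 (0.47) above it. For the difference of the responses it was -0.38 to 0.30, with Gja1 (-0.56) below it.

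The choice of background correction moved several of these genotype values. The alternatives counted here include no or a stricter detection filter and probe means. For a detected gene with 1 probe these return the reported value and so do not test its stability. Only the other corrections and normalizations could move a value. Gja1 under CR stayed past 1.5-fold lower in 10 of 10 alternatives, those included, with values between -1.98 with the local background subtracted and -0.67 with quantile normalization of all channels. Under AL it was below 0 in 10 of 10 and past 1.5-fold in 1, at -1.49 with the local background subtracted. The ring around its spot was at 82.2% (CR) and 83.7% (AL) of the spot's brightness in knockout hearts, against 52.6% (CR) and 51.3% (AL) in control hearts. Kcnq1 ran between -1.34 and -0.55 under CR and between -1.37 and -0.33 under AL, below 0 in 9 of 9 alternatives each time. Kcnh2 ran between -0.47 and -0.22 under CR and between -0.79 and -0.52 under AL, below 0 in 10 of 10. Kcnd2 was not as stable, since with the local background subtracted it stood at 0.17 under CR and 0.00 under AL.

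**Figure D3:**
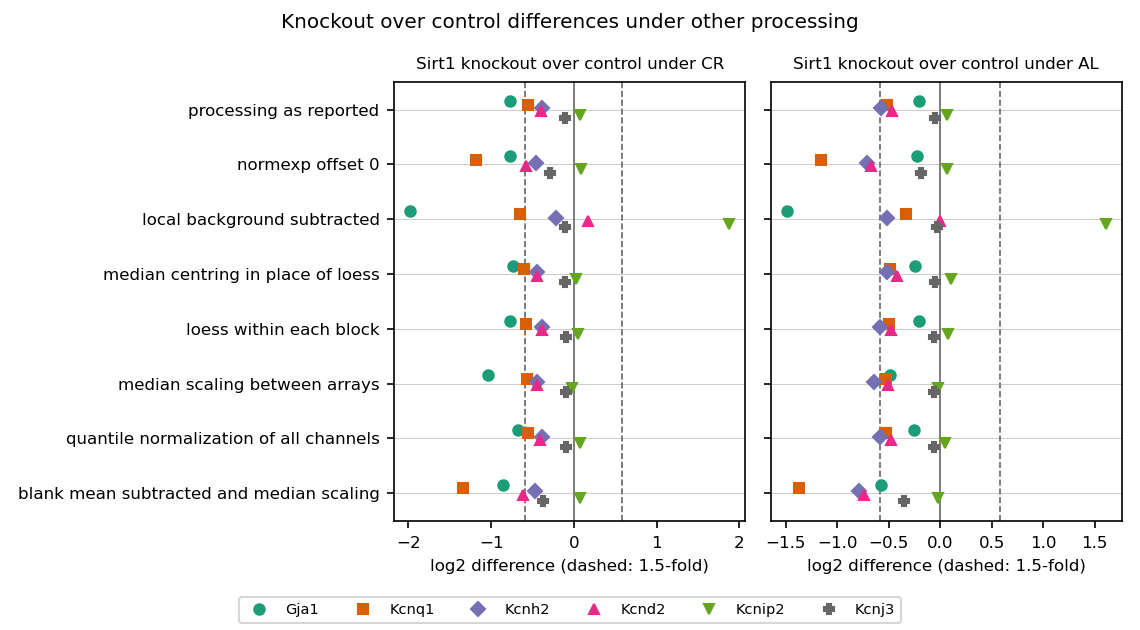
Knockout over control log2 differences (horizontal axis) of 6 genes under CR and under AL as reported and under 7 other ways of correcting or normalizing the signals, 1 point per gene and setting; dashed lines mark 1.5-fold. Gja1 stays past 1.5-fold lower under CR in every setting drawn, and Kcnip2 and Kcnd2 move to the right when the local background is subtracted.

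The upstream sequences of Gja1, Kcnh2 and Kcnd2, which were lower in both knockout hearts, and of Kcnip2, which was higher in both CR hearts, are shown because a shared pattern invites a comparison of their promoters. Promoters of 8 of the 9 genes matched by symbol in the RefSeq table of build GRCm38.p6 (Kcnq1 was not matched). The 250 bases before each start are printed 5′ to 3′ on the gene's strand, at chr10:56377050-56377299 on the plus strand for Gja1, chr5:24329592-24329841 on the minus strand for Kcnh2, chr6:21215096-21215345 on the plus strand for Kcnd2 and chr19:45816064-45816313 on the minus strand for Kcnip2. Capitals mark matches, on either strand, to the GC box GGGCGG, the TATA box TATAAA, the AP-1 site TGANTCA and the GATA site AGATAA.
Gja1: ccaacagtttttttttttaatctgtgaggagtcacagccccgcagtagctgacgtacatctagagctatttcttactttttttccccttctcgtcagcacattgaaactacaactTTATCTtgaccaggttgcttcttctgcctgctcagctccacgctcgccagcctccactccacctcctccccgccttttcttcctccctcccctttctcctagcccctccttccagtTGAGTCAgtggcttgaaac
Kcnh2: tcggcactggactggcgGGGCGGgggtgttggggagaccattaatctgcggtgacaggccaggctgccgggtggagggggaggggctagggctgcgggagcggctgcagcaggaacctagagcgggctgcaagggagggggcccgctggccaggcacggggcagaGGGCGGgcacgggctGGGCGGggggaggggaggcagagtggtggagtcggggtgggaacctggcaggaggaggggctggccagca
Kcnd2: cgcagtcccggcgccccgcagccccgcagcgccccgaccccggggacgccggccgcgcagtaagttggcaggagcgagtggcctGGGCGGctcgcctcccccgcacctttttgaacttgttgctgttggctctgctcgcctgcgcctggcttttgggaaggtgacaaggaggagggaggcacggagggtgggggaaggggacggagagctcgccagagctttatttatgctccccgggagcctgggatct
Kcnip2: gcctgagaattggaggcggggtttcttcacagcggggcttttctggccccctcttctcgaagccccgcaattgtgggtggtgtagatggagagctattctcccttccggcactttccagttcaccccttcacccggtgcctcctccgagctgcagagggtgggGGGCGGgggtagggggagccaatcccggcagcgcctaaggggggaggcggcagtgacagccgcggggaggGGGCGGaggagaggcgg

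Gja1 stood apart from the other 3 in base composition, with 50% GC and 6 CpG, against 73.6% and 14 for Kcnh2, 68.8% and 22 for Kcnd2 and 66.8% and 15 for Kcnip2. The median over 32851 promoters was 52.4% GC and 6 CpG. Kcnh2 had 3 GC boxes between 233 and 70 bases before the start, Kcnip2 had 2 at 87 and 17 bases, Kcnd2 had 1 at 166 bases, and Gja1 had 0. A GC box was found in 32.7% of all promoters. Gja1 held 1 AP-1 match 19 bases and 1 GATA match 135 bases before its start, in sequences that 6.75% and 9.99% of promoters also hold. The E-box CANNTG, found in 66.2% of all promoters, occurred once in Gja1, where it overlapped the AP-1 match, and once in Kcnip2, and it is not marked. No match to the TATA box (12.4% of promoters), the T-box site AGGTGTGA (1.12%), the NK2 site TNAAGTG (10.1%) or the CRE TGACGTCA (1.55%) was found in any of the 8 promoters. The 3 genes lower in knockout hearts thus shared no marked motif that the fourth lacked.

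Other channel genes, taken from lists of the same pathway, were seldom past 1.5-fold between the genotypes. Of the other voltage-gated potassium pores, 0 of 8 compared genes under CR (values between -0.11 and 0.33) and 0 of 10 under AL (between -0.18 and 0.16) were past 1.5-fold. Of the inward rectifier, ATP-sensitive and 2-pore potassium channel subunits it was 0 of 12 under CR and 0 of 15 under AL. Their values ran from -0.23 to 0.43 under CR and from -0.22 to 0.38 under AL. The L-type calcium channel subunits gave 0 of 6 under CR (-0.31 to 0.09) and 0 of 6 under AL (-0.48 to 0.15). So did the pacemaker and T-type calcium channels (-0.38 to 0.20 and -0.48 to 0.01). The cardiac sodium channel with its partners also gave 0 of 6 under each diet (0.02 to 0.32 and -0.22 to 0.14). The medians of these 5 lists lay between -0.07 and 0.07. The 12 other voltage-gated pores with a probe summed to only 345 (knockout CR), 318 (knockout AL), 410 (control CR) and 340 (control AL) units above the blank spots. For the 6 pacemaker and T-type genes the sums were 131, 108, 164 and 149 in the same order. The added offset makes differences of genes this dim smaller, so the absence of calls does not show that they were unchanged. Kcnq1, Kcnh2 and Kcnd2 were not past 1.5-fold either. The lowest genes of some lists lay near Kcnd2 (-0.40 under CR and -0.47 under AL). Among potassium channel accessory subunits, 1 of 13 was lower under AL (Kcne1, -0.73) and 1 was higher (Akap9, a scaffold that binds the Kcnq1 channel, 0.68, with 0.49 under CR). Under CR 0 of 11 were past 1.5-fold. Both AL calls were lost with the local background subtracted (Kcne1 -0.31, Akap9 0.37), and both values were larger with the blank mean subtracted (-1.56 and 1.46).

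By diet, the same channel lists held 1 gene past 1.5-fold. Fgf13, an intracellular partner that tunes cardiac sodium channels, was higher with CR by 0.72 in knockout hearts, where its log2 signals were 9.41 (CR) and 8.69 (AL). In control hearts its log2 signals were 9.32 (CR) and 8.90 (AL), a difference of 0.42. Of the transcription factors of conduction tissue and channel patterning, Gata6 was higher with CR by 0.67 in knockout hearts, against 0.35 in control hearts. Hey1, a Notch target of arterial endothelium and atrial muscle, had a difference of the responses of 0.66, the 1 gene of 18 past 1.5-fold, and stood at 0.40 with the local background subtracted.

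Other connexins and pannexins had values nearer 0 than Gja1 under CR. They ran between -0.02 and 0.10 for 6 genes under CR and between -0.20 and 0.20 for 5 genes under AL, with 0 past 1.5-fold. The 8 with a probe were dim, and together summed to 382 (knockout CR), 382 (knockout AL), 423 (control CR) and 357 (control AL) units above the blank spots. Gja1 alone stood at 3060 units or more. The added offset makes differences of genes this dim smaller, so their size cannot be set directly against that of Gja1. Of 15 genes of the intercalated disc, the junction in which Gja1 gap junctions sit beside desmosomes and adherens junctions, 3 were higher in the knockout hearts under each diet and 0 were lower. These were the adherens junction protein Ctnnb1 (0.76 under CR and 1.05 under AL), the actin linker Vcl (0.94 and 0.79) and the desmosomal plakin Dsp (0.65 and 0.89). The medians of the 15 were 0.02 under CR and 0.01 under AL. Dsp also was the 1 gene of 16 past 1.5-fold for CR over AL in control hearts (0.59). With the local background subtracted its knockout over control values were -2.30 under CR and 0.17 under AL, and its diet value in control hearts was 0.43, so all 3 calls were lost.

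**Figure D4:**
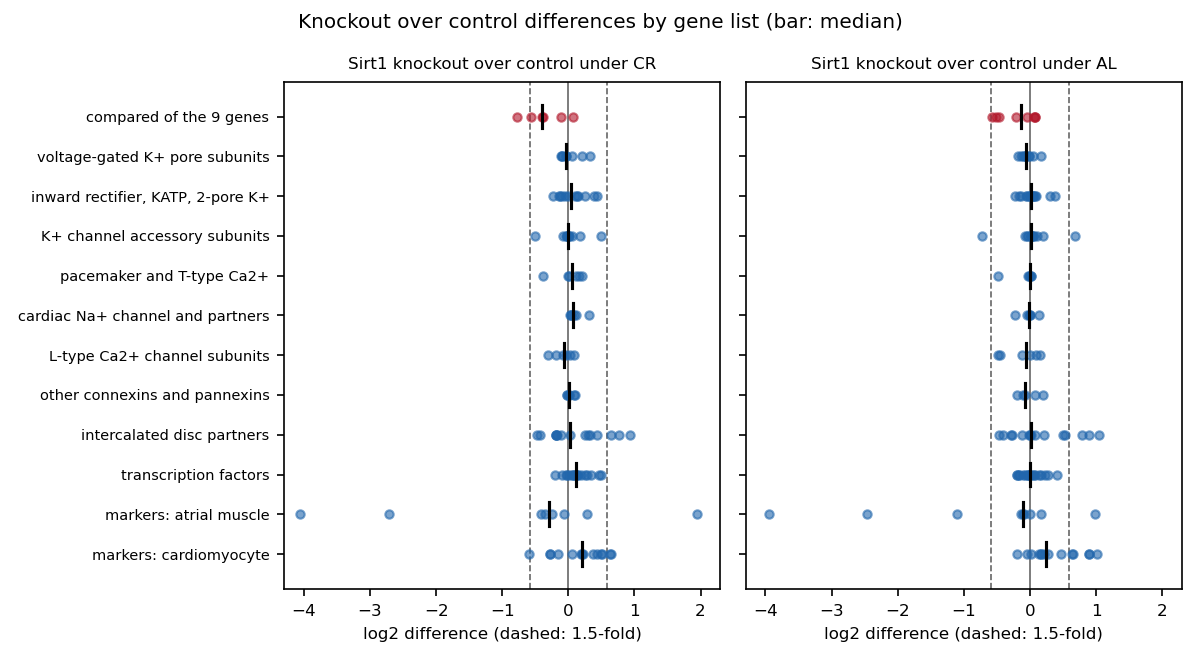
Knockout over control log2 differences (horizontal axis) under CR and AL for those of the 9 genes that could be compared (red), lists of related genes and 2 marker lists (blue), 1 point per gene compared; black bars are medians and dashed lines 1.5-fold. The median of the members compared stands at -0.40 under CR (6 genes) and -0.13 under AL (8 genes), and Myl7 and Myl4 of the atrial list stand far to the left.

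Some markers of atrial tissue differed between the genotypes. Of 9 atrial muscle markers with a probe, 8 were detected in all 4 hearts. Under CR 2 of 8 were past 1.5-fold lower in the knockout heart and 1 was higher, and under AL 3 of 9 were lower and 1 was higher. Myl7 and Myl4, the atrial myosin light chains, had log2 signals of 6.26 and 6.81 in the knockout CR heart and 6.31 and 7.01 in the knockout AL heart, against 10.32 and 9.53 in the control CR heart and 10.26 and 9.49 in the control AL heart. Stard10 was at -1.11 under AL and Nppa, the natriuretic peptide of atria and stressed ventricles, was at 1.95 under CR (0.51 with the local background subtracted) and 0.99 under AL. Sums of signals above the blank spots, in every paragraph, are in scanner units not normalized between dyes or arrays. Bright genes weigh most in these sums. For the atrial list the sums were 5368 (knockout CR), 2660 (knockout AL), 4628 (control CR) and 3743 (control AL) units. Nppa made up 4577 of the first sum and 1997 of the second. The other 8 markers summed to 791 (knockout CR) and 663 (knockout AL) units, against 3244 (control CR) and 2599 (control AL) units. Most of these control sums came from Myl7 (1439 under CR and 1166 under AL) and Myl4 (794 and 640). In knockout hearts Myl7 stood at 21 (CR) and 22.1 (AL) units and Myl4 at 56.7 and 69.1. The list's median knockout over control log2 value was -0.30 under CR and -0.11 under AL. Kcnj3 and Gja5, which atria also make, had knockout over control values of -0.11 (Kcnj3 under CR), -0.05 (Kcnj3 under AL) and 0.07 (Gja5 under AL). With the blank mean subtracted these were -0.37, -0.35 and 1.02 in the same order. The part of atrial tissue in any value of the 9 genes was not tested. Sinoatrial node markers gave 0 of 5 past 1.5-fold in either genotype comparison, and their signals summed to 186 (knockout CR), 206 (knockout AL), 193 (control CR) and 145 (control AL) units.

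Markers of the ventricular conduction system had 1 of 6 genes lower under AL (Kcne1) and 0 of 5 under CR, with summed signals of 259 (knockout CR), 216 (knockout AL), 322 (control CR) and 296 (control AL) units. Cardiomyocyte markers, all 14 detected in every heart, summed to 203757 (knockout CR), 188862 (knockout AL), 216888 (control CR) and 200118 (control AL) units. Mb alone made up 53933 units of the knockout AL sum and 54953 of the control AL sum. Under CR 2 of the 14 were higher in the knockout heart (the Z-disc protein Ldb3 at 0.65 and the myosin-binding Mybpc3 at 0.63) and 1 was lower (the creatine kinase Ckm at -0.60). Under AL 5 were higher, among them Ldb3 (1.01), Mybpc3 (0.90), the Z-disc protein Actn2 (0.89) and the titin gene Ttn (0.65), and 0 were lower. With the local background subtracted Mybpc3 turned to -0.63 under CR and -0.88 under AL. The cardiomyocyte medians were 0.21 under CR and 0.25 under AL, against -0.40 under CR and -0.34 under AL for the 6 channel and connexin genes compared under both diets. Of 10 fibroblast markers, which mark cells that also make Gja1, 4 were higher in the knockout heart under AL and 0 lower (median 0.42), with the matrix proteoglycan Lum at 0.93. Under CR 1 was higher (Lum, 0.68) and 1 lower (the collagen Col3a1, -1.09), with a median of 0.19. Arterial endothelial markers, which mark cells that make Gja5, had 0 of 8 past 1.5-fold under CR and 1 higher under AL (Nrp1, 0.99). The part of these cells in the values of the 9 genes was not tested.

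Genes with the most alike layout over the 4 hearts were sought for Gja1 and Kcnq1, the members whose 4 log2 signals spanned 1.5-fold or more (0.77 and 0.61). Likeness was the Euclidean distance between log2 signals, each minus its own mean over the 4 hearts, among brighter genes detected in all 4. For Gja1 the nearest of 5850 genes were Mark4 (0.088), Uchl4 (0.089) and Hsd17b7 (0.094), and 32 genes lay within 0.25. For Kcnq1 the nearest of 5851 were Pkig (0.031), Slpi (0.044) and Trim37 (0.051), and 319 lay within 0.25. The distance is not scaled, so a smaller span gains neighbours and the 2 counts are not comparable.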

How the data were processed

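RNA of 4 whole hearts was measured on 2 two-colour arrays. The deposited scanner files hold, per the file headers, spot intensity (median brightness per spot) at both wavelengths and the brightness of the surrounding ring. The authors also deposited log2 values, which the labels describe as normalized CR over AL. Those values were rebuilt from the scanner files, as the log2 ratio of Cy3 to Cy5 signals less their trimmed blank means and shifted by a constant (0.144 on the knockout and 0.359 on the control array). The match was within 0.001 for 16554 of 16555 knockout and 17404 of 17405 control values. Column medians were 8.079e-05 (knockout) and -2.885e-06 (control), so scale, centring and direction are known. Scanner software: not given in the sources used here, and likewise any genome build.

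Intensities were corrected with normexp (offset 50) on the spot signal without the ring, normalized by loess within arrays and by Aquantile between arrays, with limma 3.58.1 in R 4.3.3. The ring was left out because its brightness followed that of the spot (Spearman 0.888 and 0.944 on the knockout array, 0.875 and 0.936 on the control array). A spot was detected above the mean of 2736 blank spots, 5% trimmed at each end, plus 2 SD. For a gene detected in 1 heart of a pair a bound was taken from the lowest detected signal. Positive control spots varied in log2 ratio by SDs of 0.0761 and 0.0879 (knockout array) and 0.0482 and 0.0599 (control array), which measures noise between spots only. The number of arrays limits precision.

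Of 23473 probes 16631 had a symbol, of which 12622 were current and 3947 were updated through a synonym. Older synonyms of the 9 genes that are now symbols of other genes were not used. For genes with several probes the brightest was taken. Named besides the 9 genes were Sirt1, Myl7, Myl4, up to 4 genes of each list past 1.5-fold, and the 3 genes most like a member. Members and lists were chosen with earlier results of these data known. The steps were tested on simulated data with changes planted between the dyes of an array, in probes above the median signal. Differences between arrays and changes of dim genes were not covered. Alternatives were offset 0, local background subtraction, median centring, loess within blocks, no or a stricter detection filter, probe means, median scaling, quantile normalization, blank subtraction and the deposited ratios.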

Additional observations from a re-analysis of the deposited data

Results flagged for a closer look

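Gja1 and Kcnh2 had diet differences of opposite sign in the hearts of each genotype. CR over AL for Gja1 was -0.09 in knockout hearts and 0.47 in control hearts, a difference of -0.56 (-0.35 with the authors' deposited ratios). With the local background subtracted the knockout value was 0.04, of the same sign as the control value. For Kcnh2 CR over AL was 0.17 in knockout hearts and -0.02 in control hearts, a difference of 0.18, and the control value was 0.09 with median centring. Neither difference was tested, since each value rests on 1 pair of hearts.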

How the results depend on the processing

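No member was past 1.5-fold for CR over AL as reported, and with the authors' deposited ratios 1 was on each array (Kcnj3, 0.62 in knockout hearts and 0.70 in control hearts). Knockout over control under CR had 1 member past 1.5-fold as reported, 2 with offset 0, 3 with the local background subtracted, 2 with median centring and 3 with blank subtraction. Under AL it had 0 as reported, 3 with offset 0, 2 with the local background, 1 with median scaling and 4 with blank subtraction. Counts over all genes moved more. Genes past 1.5-fold for CR over AL in knockout hearts were 187 as reported, 809 with offset 0, 424 with the local background subtracted and 1683 with the deposited ratios. In control hearts these were 148, 768, 290 and 1689, and 236 with median centring. For knockout over control under CR they were 304 as reported, 1302 with offset 0, 2577 with the local background and 2111 with blank subtraction, and under AL 560, 1559, 2456 and 2608 in the same order. For the difference of the responses they were 107 as reported, 822 with offset 0, 640 with the local background and 1554 with the deposited ratios.

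The share of higher genes among those past 1.5-fold also depended on centring. It was 57.2% for knockout over control under CR and 27% with median scaling, 59.1% and 35.5% under AL, 70.9% for CR over AL in control hearts and 89.4% with median centring (59.6% with offset 0 and 44.1% with the local background), and 43% for the difference of the responses and 26.8% with median centring. With the local background subtracted, Nppa turned to -0.16 for CR over AL in knockout hearts (0.99 as reported) and to -0.38 for the difference of the responses (0.96). In that setting Dsp turned to -2.30 for knockout over control under CR, and Mybpc3 turned to -0.63 under CR and -0.88 under AL. The causes were not tested. Taking the mean over probes changes the value of no member, since each has 1 probe. The detection filters change only which genes are compared. No paired analysis was possible because each condition has 1 heart. Signals of Kcnj2, Hcn4 and Gja5 near the blank spots limit what can be said of them.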
